A study of Danio rerio x Danio aesculapii and Danio rerio x Danio albolineatus and Danio rerio x Danio kyathit with 48 samples.

Results

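In the skin of 4 interspecies Danio hybrids, 85 genes had a higher value for the father's allele than for the mother's. The same 85 genes did so with each of the 4 species of father. They were chosen in unenriched skin, where the deposited normalised values of the 3 libraries of a hybrid were summed for each allele. A gene was taken if both alleles together reached 300 and log2 of the paternal over the D. rerio value, each plus 20, was at least 0.8 in all 4 hybrids. Of 19629 genes in the tables, 6071 reached the minimum in all 4 hybrids and 85 met both conditions. The mirror condition, a D. rerio allele higher by the same margin in all 4, held for 138 genes. These include 13 mitochondrially encoded genes, which were not tested in the sorted libraries. These skin ratios chose the genes and are therefore given as a description, without a test. The tests below use the sorted libraries, which played no part in the choice, except in an alternative fit named as such.

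A hybrid carries a gene copy from each parent in the same nucleus, so both copies meet the same transcription factors, hormones and tissue. A difference in their transcript level within a library is called allelic imbalance, and it is widely used to look for differences that lie on the chromosome itself. Pigment cells of Danio come as reflective iridophores, black melanophores and yellow xanthophores, and their arrangement gives each species its adult pattern.

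Every hybrid had a zebrafish (D. rerio) mother and is named here by its father: D. nigrofasciatus, D. kyathit, D. albolineatus or D. aesculapii. Adult hybrid skin was dissociated and sorted on transgenic reporters, each driven by the promoter of a pigment cell gene: iridophores on pnp4a:mem-mCherry, xanthophores on aox5:mem-EGFP, and melanophores on tyrp1b:mem-mCherry. Unsorted whole skin of the same hybrids is called unenriched. Each of the 16 groups of hybrid and kind held 3 libraries, which gives 36 sorted and 12 unenriched libraries. Their titles number them as replicates 3, 4 and 5, and this number is called the batch number below. The D. rerio allele is common to all 4 hybrids, so the 4 ratios of a gene share that parent. D. rerio was the mother in every cross, so an effect of the mother's side and one of the species cannot be told apart. Nor can either be told apart from a difference in how reads were assigned to the alleles. Whether libraries came from separate fish is not given, nor whether a sorted and an unenriched library of the same number shared fish. The p-values therefore measure only the spread between these libraries, part of which may be technical.

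Summed values per library ran from 5173935 to 12500648, and the paternal allele held 43.94 to 54.86% of them after the authors' scaling. The estimated number of molecules behind a library had a median of 244028 in unenriched skin. Among the sorted libraries it was 105564 for iridophores, 71228 for melanophores and 59036.5 for xanthophores. The 5 defining iridophore markers summed to a median of 49253.5 in iridophore-enriched libraries and to 1557 and 6558 in the xanthophore- and melanophore-enriched ones. For the 5 melanophore markers the median was 70744 in their own libraries and 1898.5 and 3249 in the other sorted kinds, and for the 6 xanthophore markers 28846.5 against 2793.5 and 11277. Markers of other skin cells were present in every kind, and none was at 0 throughout a kind. The 4 keratinocyte markers had medians of 38474.5, 28073.5 and 68188 in iridophore-, melanophore- and xanthophore-enriched libraries and 105002.5 in unenriched skin. The 4 leukocyte markers had 7728.5, 40559, 24738.5 and 25518.5 in the same order. Of the unenriched libraries, kyathit 5 and nigrofasciatus 3 stood apart by high pigment cell markers. Without them the rule gave 58 genes, 51 of which are among the 85 (60% of the 85 and 87.9% of the 58).

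In unenriched skin the median log2 ratio of the 85 genes was 1.48 in the aesculapii, 1.67 in the albolineatus, 1.59 in the kyathit and 1.40 in the nigrofasciatus hybrid. The median of all 6071 genes past the minimum lay between -0.04 and -0.01. At library level, 69 of the 85 genes had the paternal value above the D. rerio value in all 12 unenriched libraries. The sums of these same libraries chose the genes, so a high count follows from the choice. The lowest number was 9 of 12, for rpap3, which codes for an RNA polymerase II-associated protein. Just inside the threshold, by the lowest of the 4 hybrids, were tyk2 (0.80), stt3b (0.80), cfp (0.80), prkar1aa (0.81) and actn1 (0.82). Among those just outside were sec61a1 (0.79), susd6 (0.79), adma (0.77) and hmgcra (0.77).

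The size of the skin ratio varied among the 4 hybrids, which is given as a description without a test. The range was not computed for all genes. The range of a gene's ratio over the 4 hybrids had a median of 1.14 and was 2 or more in 10 genes and under 0.5 in 10 others. The fucosidase gene fuca1.2 had the smallest range, 0.09, followed by the nocturnin gene nocta with 0.15 and dcun1d5 with 0.18. The properdin gene cfp had the largest, 3.58, with ratios of 4.39 in aesculapii and 0.80 in nigrofasciatus. The highest of the 4 ratios fell in aesculapii for 15 genes, in albolineatus for 17, in kyathit for 27 and in nigrofasciatus for 26.

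**Figure D1:**
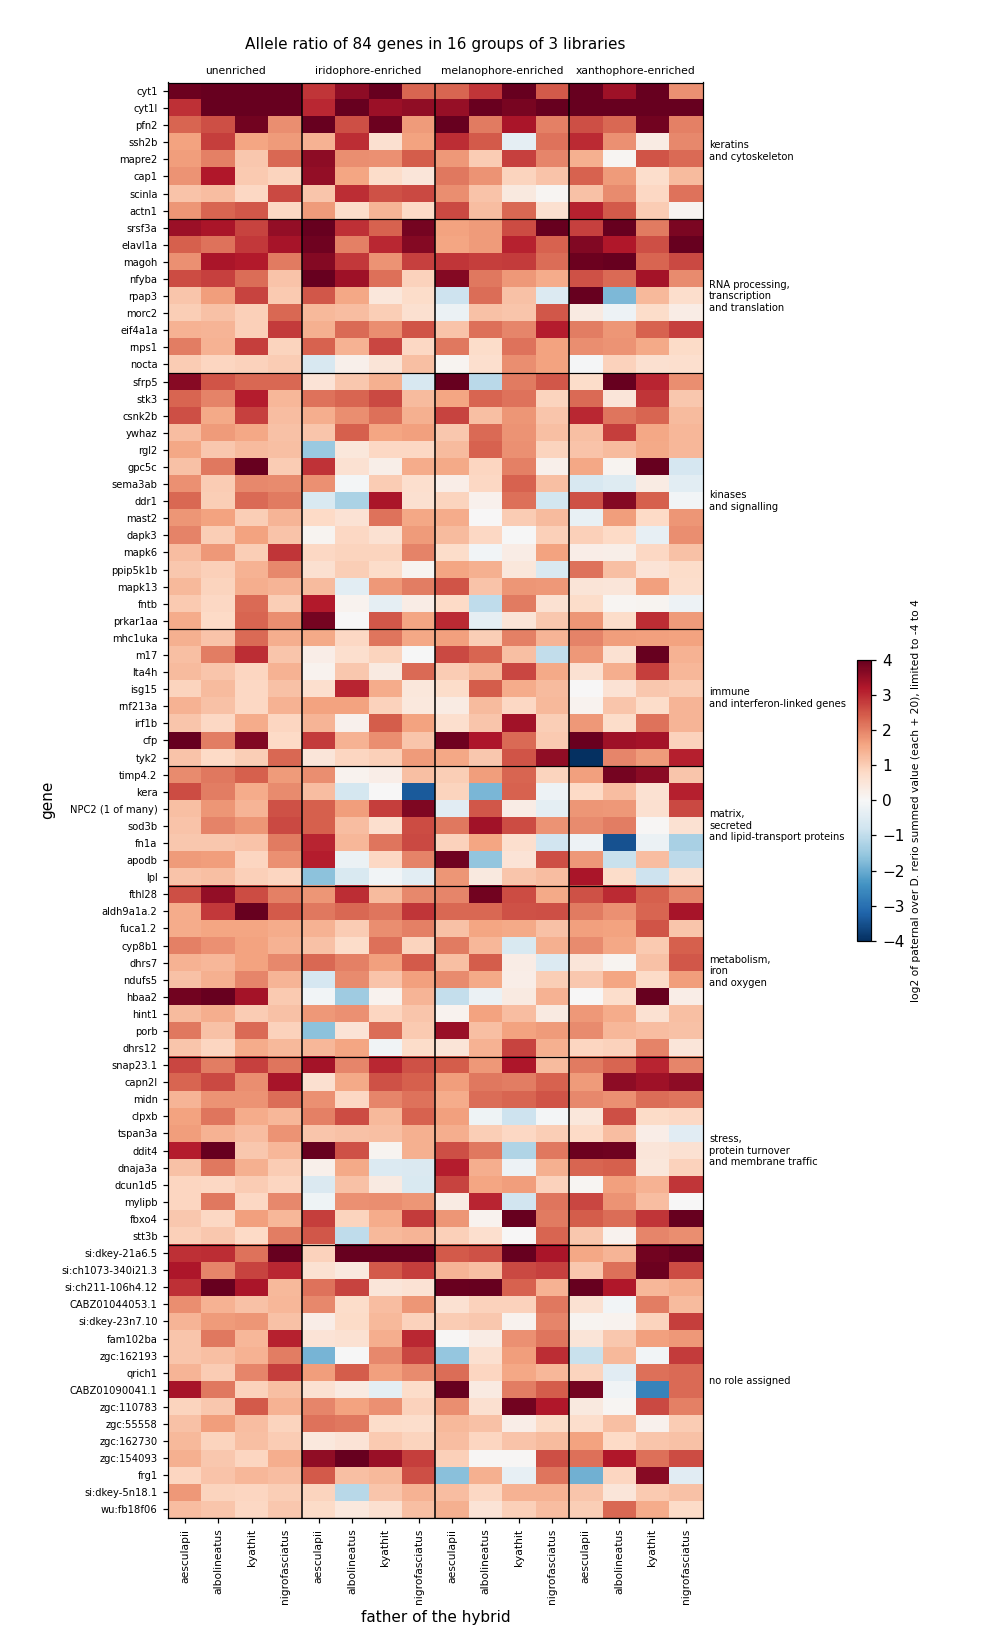
Log2 of the paternal over the D. rerio normalised value (each summed over 3 libraries, plus 20) for 84 of the 85 genes (vertical axis, grouped by role and sorted by their lowest skin ratio) in 16 groups (horizontal axis, father of the hybrid within each kind of library). Red marks a higher paternal and blue a higher D. rerio value, with colours limited to -4 and 4. The 4 unenriched columns chose the genes, and in the 12 sorted columns 42 of the genes drawn are above 0 in every group. Of all genes with a summed value of 300 or more, 47.7 to 53.5% are above 0 in a single sorted group. Their share above 0 in all 12 sorted groups was not computed.

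Keratins and cytoskeletal genes made up 8 of the 85 and had a median skin ratio of 2.32. The type I cytokeratin gene cyt1 had the highest skin ratios by the lowest hybrid. Its D. rerio value in the 12 unenriched libraries ran from 13 to 109 with a median of 34.5, and its paternal value ran from 530 to 1498 with a median of 893.5. No unenriched library brought the alleles of cyt1 near each other, and its ratios were 3.94, 4.10, 4.83 and 4.35 in the aesculapii, albolineatus, kyathit and nigrofasciatus hybrids. Its close copy cyt1l had 2.93, 4.61, 4.06 and 5.21, from D. rerio values of 19 to 335 and paternal values of 674 to 2601. Since reads of cyt1 and cyt1l could be split between near-identical copies by the counting, both are uncertain as single genes. In the sorted libraries the paternal value exceeded the D. rerio value in 36 of 36 libraries for both genes.

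RNA-processing, transcription and translation genes numbered 9, with a median skin ratio of 2.06. The splicing factor gene srsf3a had ratios of 3.43, 3.26, 2.70 and 3.52 in the same order of hybrids, from D. rerio values of 0 to 45 and paternal values of 10 to 535. The gene of the RNA-stabilising protein HuR, elavl1a, had 2.38, 2.16, 2.83 and 3.30. Genes of the exon junction complex, which marks spliced transcripts, were present with magoh (1.83 to 3.26) and rnps1 (0.89 to 2.76). The gene of the translation initiation helicase eIF4A, eif4a1a, had 1.38, 1.35, 0.96 and 2.81, with nigrofasciatus well above the other hybrids.

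Kinases and signalling genes were the largest named group with 15 members and a median of 1.53. It held the secreted Wnt antagonist gene sfrp5 (2.30 to 3.64), the Hippo pathway kinase gene stk3 (1.34 to 3.13), the casein kinase 2 subunit gene csnk2b (1.22 to 2.74) and the 14-3-3 gene ywhaz (1.17 to 1.70). The 8 immune and interferon-linked genes had a median of 1.19, among them the MHC class I gene mhc1uka (1.15 to 2.26), the interferon regulatory factor gene irf1b (0.83 to 1.48), the ubiquitin-like gene isg15 (0.84 to 1.26) and the leukotriene A4 hydrolase gene lta4h (0.85 to 1.39). Class I genes belong to a family of close and variable copies, so mhc1uka is uncertain as a single gene.

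Metabolic, iron and oxygen genes numbered 11 with a median of 1.59. The ferritin-like gene fthl28 had ratios from 2.02 to 3.53 and the alpha-globin gene hbaa2 from 1.06 to 4.47. Both have near-identical copies and are uncertain as single genes. Of 11 stress, protein turnover and membrane traffic genes (median 1.56), the SNARE gene snap23.1 reached 2.05 to 2.72, the calpain gene capn2l 1.85 to 3.30, the midnolin gene midn 1.37 to 2.23 and the mTORC1 inhibitor gene ddit4 1.08 to 4.42. The 7 matrix, secreted and lipid-transport genes (median 1.72) included the protease inhibitor gene timp4.2 (1.72 to 2.38), the keratocan gene kera (1.49 to 2.62), the lipoprotein lipase gene lpl (0.86 to 1.21) and the fibronectin gene fn1a (1.09 to 2.08). A further 16 genes (median 1.33) were given no role, among them zgc:162730 (0.88 to 1.28), si:dkey-21a6.5 (2.18 to 4.34) and si:ch211-106h4.12 (1.29 to 4.80).

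The first comparison asked whether the libraries enriched for pigment cells showed the same imbalance. These libraries also held markers of other skin cells, whose part in the ratios was not tested. For each library the log2 of paternal molecules divided by D. rerio molecules was centred on the library's median gene, and the mean over the 4 hybrids was tested with limma within each kind. A gene entered this test only if every hybrid had enough molecules, which 25 of the 85 genes reached in at least 1 kind. In iridophore-enriched libraries 16 of 16 genes tested were higher from the paternal allele, against 15.4% of all 1985 genes tested. In melanophore-enriched libraries it was 16 of 18, against 11.3% of 1491, and in xanthophore-enriched libraries 11 of 11, against 10.4% of 766. The D. rerio allele was higher for 30.1, 28.6 and 25.6% of all genes tested in the 3 kinds and for none of the 85 by limma, nor for any at an unadjusted p under 0.05. The 138 mirror genes gave 0 paternal-higher calls among the 24, 20 and 14 of them that were tested in these kinds.

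Of these genes, 7 were tested and called in all 3 kinds, and they span several roles. For eif4a1a the D. rerio value in the 12 iridophore-enriched libraries ran from 60 to 954 (median 260.5) and the paternal value from 744 to 1900 (median 1292.5). Its 12 iridophore-enriched libraries all had a paternal excess, and the centred ratio was 1.98 ± 0.17 (SE, n = 12, adjusted p = 9.21e-08), with 1.87 ± 0.18 in melanophore-enriched (adjusted p = 1.98e-07) and 2.17 ± 0.20 in xanthophore-enriched libraries (adjusted p = 3.98e-07). For midn, whose protein carries nuclear proteins to the proteasome, the xanthophore-enriched libraries held D. rerio values of 208 to 1776 (median 378.5) and paternal values of 503 to 4444 (median 1992). Its ratios were 1.63 ± 0.16, 1.91 ± 0.14 and 1.78 ± 0.17 in iridophore-, melanophore- and xanthophore-enriched libraries. For ywhaz the iridophore-enriched libraries held D. rerio values of 453 to 1284 and paternal values of 1580 to 4380, ranges that do not overlap. Its ratios were 1.62 ± 0.10, 1.47 ± 0.13 and 1.49 ± 0.14 in the same order, positive in 36 of 36 sorted libraries.

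The antigen-presentation gene mhc1uka had D. rerio values of 519 to 1353 and paternal values of 1450 to 3498 in melanophore-enriched libraries, again without overlap. Its ratios were 1.47 ± 0.11, 1.35 ± 0.13 and 1.52 ± 0.17, positive in all 36 sorted libraries. The gene zgc:162730 had D. rerio values of 5538 to 10863 (median 7893) and paternal values of 9155 to 25759 (median 17643.5) in melanophore-enriched libraries. Its ratio was 1.0 ± 0.07 there and 1.0 ± 0.09 in xanthophore-enriched libraries, and 0.64 ± 0.09 in iridophore-enriched ones, where 1 of 12 libraries fell below 0. The actin regulator gene cap1 had 1.36 ± 0.17, 1.31 ± 0.20 and 1.25 ± 0.26. The gene of the actin-severing scinderin family, scinla, had 2.27 ± 0.21 in iridophore-enriched, 0.81 ± 0.24 in melanophore-enriched and 1.40 ± 0.16 in xanthophore-enriched libraries. Its melanophore value (adjusted p = 0.0118) was the only one of these 7 genes' results to lose its call under an alternative: without replicate 5 it was 0.40 with adjusted p = 0.158.

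**Figure D2:**
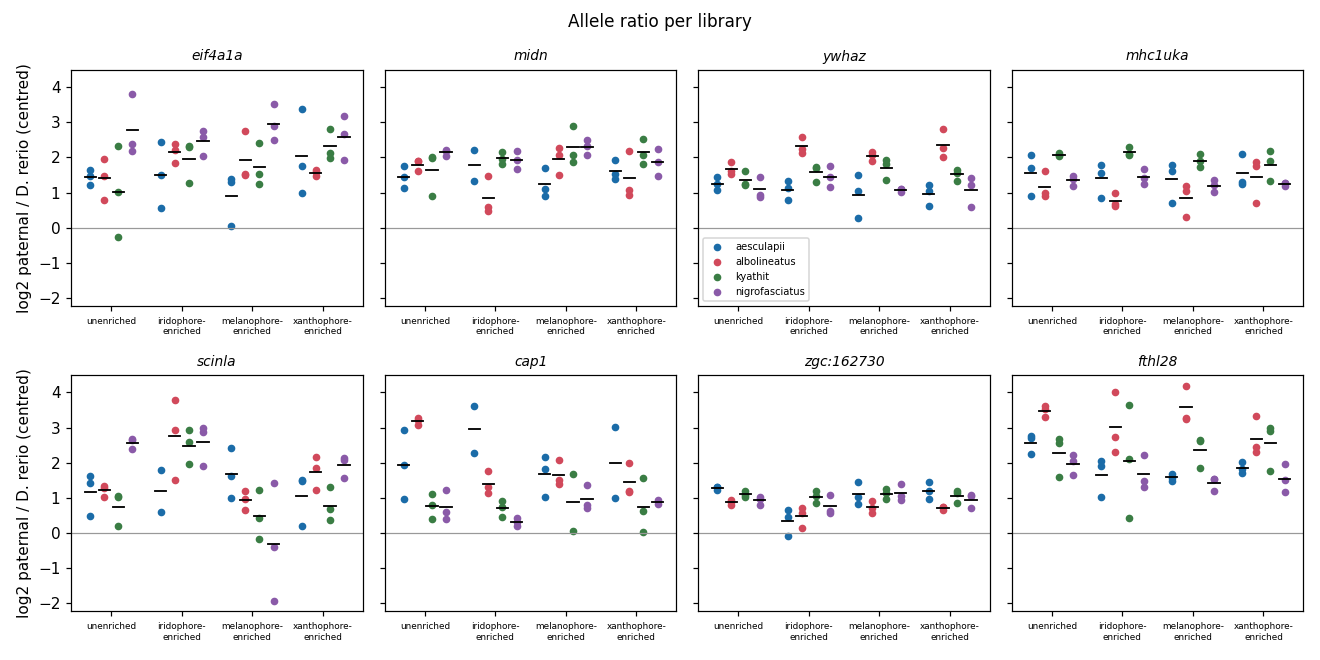
Centred log2 of paternal divided by D. rerio molecules (vertical axis) in each library with a value, for 7 genes tested in all 3 sorted kinds and for fthl28, by kind of library (horizontal axis) and hybrid (colour). Points are libraries and black lines unweighted means of up to 3 libraries. Nearly all points lie above 0, and in scinla 3 melanophore-enriched libraries of kyathit and nigrofasciatus lie below it.

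Genes tested in fewer kinds included larger ratios. In iridophore-enriched libraries si:dkey-21a6.5 had 3.80 ± 0.30 (adjusted p = 9.85e-08), the profilin gene pfn2 2.89 ± 0.23, snap23.1 2.42 ± 0.20, the microtubule end-binding gene mapre2 2.14 ± 0.23 and csnk2b 1.58 ± 0.19. The paternal value of pfn2 ran from 202 to 1381 and its D. rerio value from 9 to 219, with the paternal value above in 12 of 12 libraries. The aesculapii replicate 3 library held too few molecules for a ratio of pfn2, mapre2, csnk2b, cap1, midn, scinla or si:dkey-21a6.5 and was left out of their iridophore fits, as was replicate 5 for tspan3a. Some fits in the other kinds likewise rested on 9 to 11 libraries. The nucleotide hydrolase gene hint1 had 1.26 ± 0.14, the tetraspanin gene tspan3a 1.05 ± 0.22, the respiratory complex I gene ndufs5 0.99 ± 0.16 and the dehydrogenase gene dhrs12 0.75 ± 0.18.

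In melanophore-enriched libraries fthl28 had 2.22 ± 0.16 (adjusted p = 1.07e-08), lta4h 1.76 ± 0.24, timp4.2 1.41 ± 0.24, irf1b 1.25 ± 0.20, si:dkey-5n18.1 1.13 ± 0.15, dhrs12 1.09 ± 0.23, nocta 1.01 ± 0.22, and hint1 and ndufs5 0.84 ± 0.21 and 0.84 ± 0.19. The 2 genes that did not pass there were lpl (0.59 ± 0.24, adjusted p = 0.065) and the cholesterol-transport gene NPC2 (1 of many) (0.46 ± 0.21, adjusted p = 0.0852), which the tables themselves name as a copy among several. In xanthophore-enriched libraries si:ch211-106h4.12 had 2.53 ± 0.31, irf1b 1.21 ± 0.23, si:dkey-5n18.1 1.08 ± 0.24 and lpl 0.94 ± 0.33 (adjusted p = 0.0384, and adjusted p = 0.128 without replicate 5).

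Tested hybrid by hybrid, the genes were again higher from the paternal allele. Over the 12 groups of hybrid and sorted kind, 73 genes could be tested in at least 1 group and 12 in none. In all, 243 of 395 pairs of gene and group were called paternal-higher (61.5%), against 7.89% of all 31994 pairs. None of the 395 was called D. rerio-higher by limma and none reached an unadjusted p under 0.05 in that direction, against 10.3% of all pairs called. In the order aesculapii, albolineatus, kyathit and nigrofasciatus, the D. rerio-higher share of all genes was 8.09, 14.5, 14.6 and 14.1% in iridophore-, 4.74, 7.61, 7.36 and 10.4% in melanophore- and 4.43, 5.98, 5.83 and 13.2% in xanthophore-enriched libraries. Of the 395 estimates 387 were above 0 (98%, and 48.2% for all genes), with a median of 1.55 and a range from -0.54 to 5.23. The mirror genes were called D. rerio-higher in 346 of 525 pairs and paternal-higher in 0.

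In iridophore-enriched libraries the calls came to 14 of 24 genes in aesculapii (background 6.92%), 24 of 34 in albolineatus (11%), 44 of 56 in kyathit (13.9%) and 37 of 51 in nigrofasciatus (10.7%). Melanophore-enriched libraries gave 10 of 29 (background 2.72%), 15 of 33 (4.9%), 18 of 28 (6.41%) and 22 of 37 (6.09%) in the same order. Xanthophore-enriched libraries gave 7 of 13 (background 2.05%), 17 of 29 (3.27%), 17 of 33 (4.78%) and 18 of 28 (7.32%). Every group's share lay above its background, and the fewest genes, 13, could be tested in the xanthophore-enriched libraries of aesculapii, the group with the fewest molecules.

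**Figure D3:**
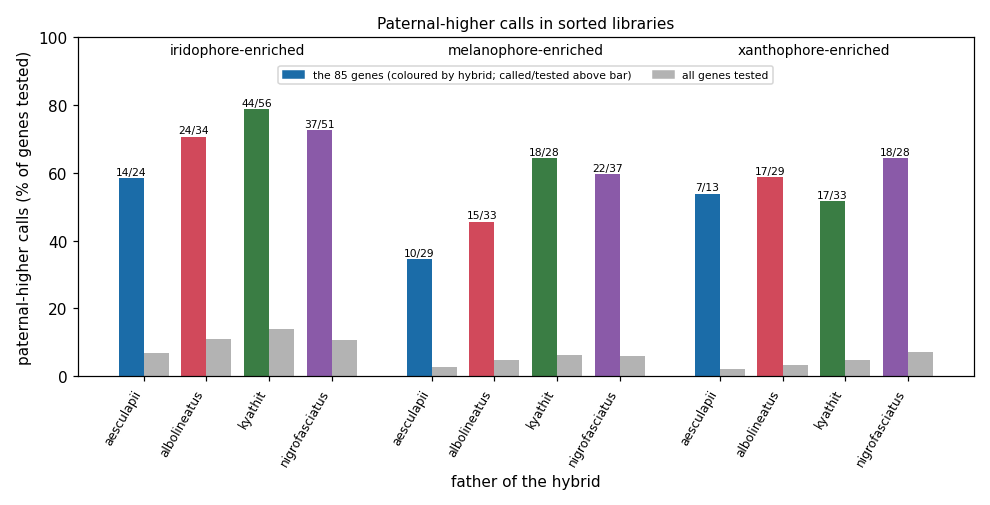
Share of tested genes called paternal-higher (vertical axis, percent) in each hybrid (horizontal axis) and sorted kind, for the 85 genes (coloured bars, with the number called and tested above each) and for all genes tested (grey bars). The coloured bars run from 34.5 to 78.6% and the grey bars from 2.05 to 13.9%.

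The 15 genes called in 6 or more groups came from every role but the matrix group. Only 4 of the 7 matrix genes could be tested in any group, and 9 of their 25 pairs were called. How many of all genes were called in 6 or more groups was not computed. The genes eif4a1a, midn and mhc1uka were called in 11 of 12 groups, ywhaz and zgc:162730 in 10 of 12, and pfn2 in 10 of 10 tested. The keratin gene cyt1l was called in 9 of 9 groups tested and cyt1 in 8 of 9. Keratinocyte markers were present in every sorted kind, and their part in these ratios was not tested. By role, calls reached 44 of 59 pairs among keratins and cytoskeletal genes, 29 of 40 among RNA and translation genes, 37 of 53 among stress and traffic genes, 27 of 43 among kinases and signalling genes, 25 of 48 among immune genes and 30 of 60 among metabolic genes. Genes of unassigned role gave 42 of 67. Over all genes tested, 7.89% of pairs were called.

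The largest single estimates were those of si:dkey-21a6.5 in the iridophore-enriched libraries of nigrofasciatus (5.23 ± 0.24, SE, limma adjusted p = 4.3e-07) and of the keratin gene cyt1 in those of kyathit (5.22 ± 0.28, limma adjusted p = 1.12e-08). The 8 estimates below 0 belonged to 7 genes, with dnaja3a in iridophore-enriched libraries of kyathit the lowest (-0.54 ± 0.30, limma adjusted p = 0.209). The others were NPC2 (1 of many) in melanophore-enriched libraries of aesculapii and nigrofasciatus, lpl in those of albolineatus, scinla in those of nigrofasciatus, and dhrs12, irf1b and ndufs5 in iridophore-enriched libraries of 1 hybrid each. Of the 73 genes tested, 9 were never called: actn1, dcun1d5, wu:fb18f06, dnaja3a, rgl2, rpap3, si:dkey-23n7.10, morc2 and dapk3, each tested in 1 to 3 groups. The 12 that could not be tested were sod3b, sfrp5, dhrs7, tyk2, m17, clpxb, ddr1, ppip5k1b, fntb, fn1a, hbaa2 and kera, so secreted and matrix genes are among those on which the sorted libraries give no test.

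Summed values without a test cover all 85 genes, including those with few molecules. The summed paternal value was above the D. rerio value in all 12 sorted groups for 43 genes and in at least 10 groups for 70. Of genes with a summed value of 300 or more in a sorted group, 88.9 to 96.2% of the 85 were above 0. For all such genes it was 47.7 to 53.5%, and 15 to 31% had a log2 ratio of 0.8 or more. These ratios were not centred, and library medians ran from -0.098 to 0.76. The share of all genes over all 12 groups was not computed. Of the 85, 19 genes had a log2 ratio of 0.8 or more in all 12 groups. Among them were cyt1, cyt1l and pfn2 of the cytoskeleton, srsf3a, elavl1a, magoh, eif4a1a and nfyba of RNA handling and transcription, csnk2b and ywhaz of signalling, mhc1uka and cfp of immunity, aldh9a1a.2, fuca1.2 and fthl28 of metabolism and iron, midn and snap23.1 of turnover and traffic, and si:dkey-21a6.5. The lowest counts, 7 of 12 groups, belonged to lpl, zgc:162193, fn1a, hbaa2 and kera. The red cell gene hbaa2 had low values in iridophore-enriched libraries, with median D. rerio and paternal values of 1 and 2 in iridophore-enriched libraries against 17 and 247 in unenriched ones. For kera, a gene of the corneal and dermal matrix, the D. rerio and paternal medians were 5.5 and 4 in iridophore-, 7.5 and 11.5 in melanophore- and 8.5 and 103.5 in xanthophore-enriched libraries, beside 34.5 and 115 in unenriched ones. Its paternal value was above in 11 of 12 xanthophore-enriched libraries and in 5 of 12 of each other sorted kind. As a description over the 85 genes, a gene's mean ratio in skin and in sorted libraries had a Pearson correlation of 0.53 for iridophore-, 0.64 for melanophore- and 0.74 for xanthophore-enriched libraries. These points share the alleles, the way reads were assigned and possibly the fish.

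The next comparison asked whether a gene's allele ratio differed among the 3 sorted cell kinds of a hybrid. No pair of gene and hybrid passed limma's F test among 65 pairs over 27 genes, against 0.329% of all 5477 pairs. Of the 65, 8 had an unadjusted p under 0.05, a share that was not computed for all genes. Over all genes, the share called was 0.707% in aesculapii, 0.149% in albolineatus, 0.297% in kyathit and 0.356% in nigrofasciatus. The lowest adjusted p was that of NPC2 (1 of many) in kyathit (adjusted p = 0.0504), with ratios of 2.57 in iridophore-, 0.22 in melanophore- and 0.51 in xanthophore-enriched libraries. Its ratios in nigrofasciatus were 3.21, -0.21 and 1.86 (adjusted p = 0.103). The gene scinla followed with 2.51, 0.66 and 0.81 in kyathit (adjusted p = 0.0761), and 2.68, -0.14 and 1.91 in nigrofasciatus (adjusted p = 0.119). An alternative fit let the unenriched libraries share in the estimate of spread. Its F test gave NPC2 (1 of many) adjusted p = 0.0156 in kyathit and 0.0393 in nigrofasciatus, and scinla 0.031 in kyathit. The unenriched libraries chose the genes, so these values are not counted as calls. In NPC2 (1 of many) the D. rerio value was far higher in the melanophore-enriched libraries (416 to 1626, median 533.5) than in the iridophore-enriched ones (12 to 118, median 48.5), while the paternal medians were 684 and 334.5. Leukocyte markers were also higher in those libraries, and their part in the difference was not tested.

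The allele ratio did differ among hybrids for some genes. Within a sorted kind, 9 of 44 pairs of gene and kind passed the F test over the 4 hybrids, against 24.5% of all 4235 pairs, so the share was not above the background. It was 4 of 15 in iridophore-enriched (background 31.2%), 4 of 18 in melanophore-enriched (21.2%) and 1 of 11 in xanthophore-enriched libraries (13.4%). A further 5 pairs had an unadjusted p under 0.05, a share that was not computed for all genes. They were ywhaz in all 3 kinds, with its highest ratio in albolineatus in each (2.30, 2.05 and 2.36), and dhrs12 in iridophore- and melanophore-enriched libraries.

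The interferon regulatory factor gene irf1b had the lowest adjusted p, in melanophore-enriched libraries (limma F test, adjusted p = 0.00169). In kyathit the D. rerio values were 100, 155 and 110 and the paternal values 1653, 888 and 1398, whereas in aesculapii the D. rerio values were 645, 495 and 784 and the paternal values 2105, 389 and 614. The kyathit ratio was 3.26 and did not overlap with the others, against 0.02 in aesculapii, 0.92 in albolineatus and 0.78 in nigrofasciatus. Without replicate 5 the test of irf1b gave adjusted p = 0.0672. In xanthophore-enriched libraries its ratios of 1.11, 0.59, 1.97 and 1.07 did not pass the test (adjusted p = 0.453).

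The actin regulator cap1 differed in iridophore-enriched libraries (adjusted p = 0.00546). The 2 aesculapii libraries with a ratio had D. rerio values of 51 and 46 and paternal values of 916 and 395, and the 3 nigrofasciatus libraries had D. rerio values of 168, 176 and 443 and paternal values of 240, 239 and 642. The ratios of cap1 fell in the order aesculapii (3.02), albolineatus (1.42), kyathit (0.69) and nigrofasciatus (0.33). No library of a hybrid overlapped with those of another. However, both aesculapii D. rerio values lay below the value of a single estimated molecule in their libraries (55.48 in replicate 4 and 87.73 in replicate 5). The size of the aesculapii ratio and its distance from the other hybrids are therefore uncertain. The gene cap1 passed in each of the 8 alternatives in which it could be tested, and in 3 others it could not be tested.

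The ferritin-like gene fthl28 differed in melanophore-enriched libraries (adjusted p = 0.00695). In albolineatus its paternal values were 3605, 5156 and 5792 and its D. rerio values 296, 443 and 247. That hybrid's ratio, 3.49, lay above 1.56 in aesculapii, 2.36 in kyathit and 1.45 in nigrofasciatus without overlap of libraries, and without replicate 4 the test gave adjusted p = 0.144. In NPC2 (1 of many), the albolineatus hybrid also stood alone in melanophore-enriched libraries, with a ratio of 2.17 against -0.39, 0.22 and -0.21 in aesculapii, kyathit and nigrofasciatus (adjusted p = 0.0238). Its paternal values there were 2828, 2478 and 4726 in albolineatus and 277 to 791 in the other 3 hybrids.

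In iridophore-enriched libraries ndufs5 had ratios of -0.23 in aesculapii, 1.81 in albolineatus, 1.11 in kyathit and 1.3 in nigrofasciatus (adjusted p = 0.0273). It lost the call without replicate 3, 4 or 5 (adjusted p = 0.136, 0.0539 and 0.143). The class I gene mhc1uka had 1.5, 0.78, 2.15 and 1.43 in that order (adjusted p = 0.0307, 0.0541 with the batch number as a block, and 0.0559, 0.381 and 0.163 without replicate 3, 4 or 5). The ratios of the 3 kyathit libraries of mhc1uka, with paternal values of 5762, 2897 and 4511 and D. rerio values of 1330, 580 and 1058, lay above those of all other libraries. For pfn2 the ratios were 3.97, 2.33, 3.82 and 1.40 (adjusted p = 0.034). With no minimum of molecules pfn2 and, in melanophore-enriched libraries, NPC2 (1 of many) lost the call (adjusted p = 0.0649 and 0.0568).

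In melanophore-enriched libraries eif4a1a had 1.06, 1.85, 1.59 and 2.98 (adjusted p = 0.0375, and 0.0895, 0.183 and 0.101 without replicate 3, 4 or 5), with the highest ratio in nigrofasciatus. Of the 9 genes, irf1b, fthl28, mhc1uka and eif4a1a had their highest ratio in the same hybrid in skin, and the others did not. Over all 85 genes, 32 shared the highest hybrid with skin in iridophore-, 39 in melanophore- and 35 in xanthophore-enriched libraries, and deviations from a gene's mean correlated by 0.25, 0.35 and 0.3 over 340 points, which share alleles and possibly fish. In xanthophore-enriched libraries si:ch211-106h4.12 had 4.26, 3.42, 1.42 and 0.92 (adjusted p = 0.0467, 0.0842 with the batch number as a block, and 0.0548 without replicate 5). It kept the call in 2 of the 8 alternatives in which it could be tested. Its aesculapii replicate 5 library held a paternal value of 34623 against 337 for the D. rerio allele.

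**Figure D4:**
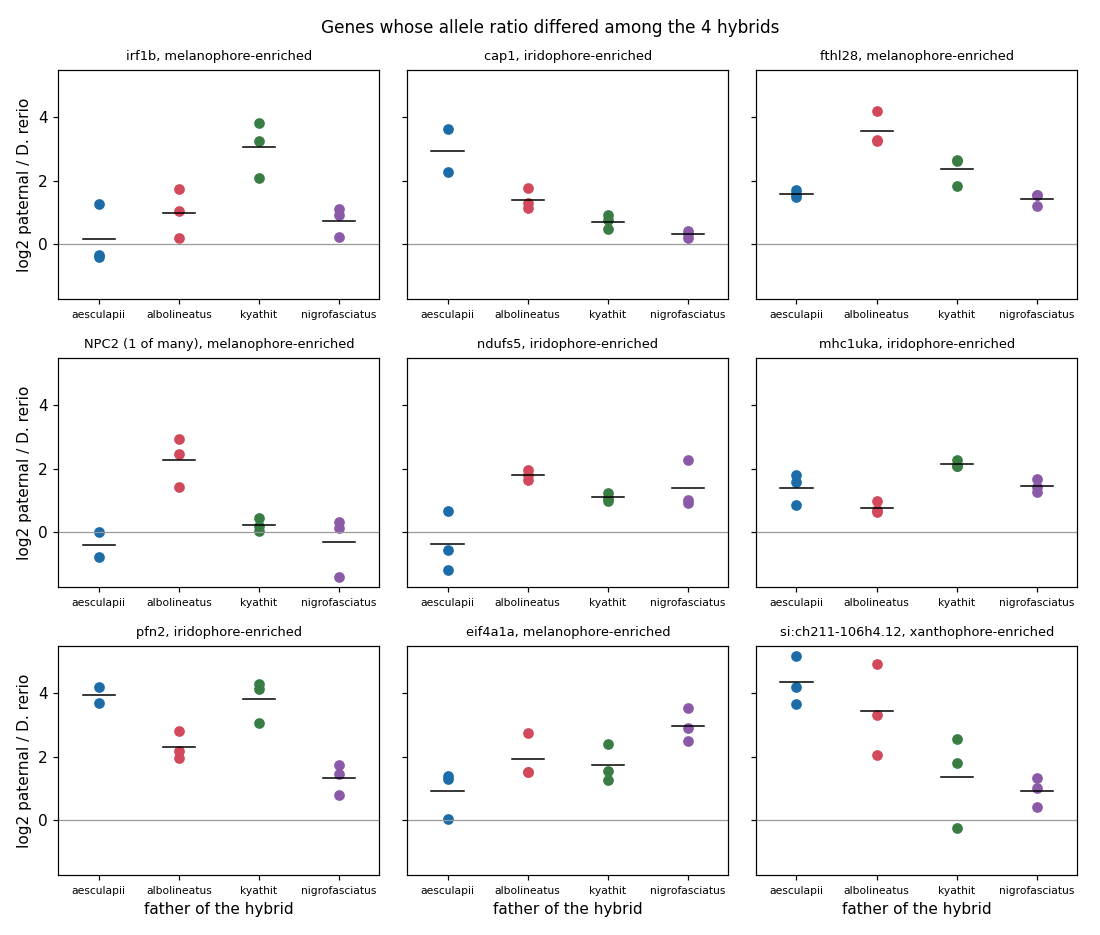
Centred log2 of paternal divided by D. rerio molecules per library (vertical axis) by father of the hybrid (horizontal axis) for the 9 pairs of gene and sorted kind that passed the F test among hybrids. Points are libraries and black lines unweighted means of 2 or 3 libraries. The hybrid with the highest ratio is kyathit for irf1b and mhc1uka, aesculapii for cap1, pfn2 and si:ch211-106h4.12, albolineatus for fthl28, NPC2 (1 of many) and ndufs5, and nigrofasciatus for eif4a1a.

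The genes were not evenly expressed over the sorted kinds of library. Both alleles together, the 85 genes made up a median of 0.822% of the summed value where iridophores had been sorted, 1.41% for melanophores, 1.36% for xanthophores and 1.4% for whole skin. A large part came from zgc:162730 alone, with mean values of 8490, 26600, 37200 and 29300 in that order. Its medians were 7133, 25554.5, 29474 and 28076, and its highest xanthophore-enriched library had 130846. By limma on the summed value, 15 of 39 genes were lower in iridophore- than in melanophore-enriched libraries (background 18.1%) and 3 were higher (18.6%). Against xanthophore-enriched libraries, 14 of 37 were lower in iridophore-enriched ones (17.7%) and 2 higher (17.6%). Of the mirror genes, 16 of 71 were lower and 11 higher against melanophore-enriched libraries, and 20 of 64 lower and 10 higher against xanthophore-enriched ones. Between melanophore- and xanthophore-enriched libraries 1 of 34 was higher in the former (3.04%) and 0 lower by limma (1.94%). At an unadjusted p under 0.05, 8 were lower, a share that was not computed for all genes. The background genes of these contrasts did not have to reach the minimum in skin, as the 85 did. In bulk libraries, fewer cells of a type and less RNA per cell cannot be told apart.

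Lower in iridophore-enriched libraries than in both other kinds were 10 of 35 genes tested in both contrasts (28.6%), against 12.7% of all 2719, and 2 were higher than in both (5.71%, against 14.6%). The lipoprotein lipase gene lpl had normalised values of 3 to 158 (median 43.5) in iridophore-enriched, 158 to 2905 (median 667) in melanophore-enriched and 133 to 6917 (median 849) in xanthophore-enriched libraries. Its log2 difference was -3.37 ± 0.43 from melanophore-enriched (adjusted p = 9.72e-08) and -3.94 ± 0.48 from xanthophore-enriched libraries (adjusted p = 4.23e-08). The gene si:dkey-5n18.1 had values of 74 to 1087 (median 264.5) in iridophore-enriched and 2586 to 9266 (median 3367) in melanophore-enriched libraries, which do not overlap, with a difference of -3.78 ± 0.34 (adjusted p = 3.9e-10). The gene zgc:162730 had 3910 to 17124 (median 7133) and 14693 to 36622 (median 25554.5), with a difference of -1.74 ± 0.15 (adjusted p = 5.7e-11).

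The other genes lower than in both kinds were si:ch211-106h4.12 (-2.93 and -3.48 against melanophore- and xanthophore-enriched libraries), lta4h (-2.46 and -1.85), NPC2 (1 of many) (-1.99 and -1.03), scinla (-0.98 and -1.54), nocta (-1.11 and -1.2), irf1b (-1.08 and -0.99) and cap1 (-0.71 and -0.77). Properdin is a complement factor made by leukocytes, and its gene cfp differed between iridophore- and melanophore-enriched libraries by -3.38 ± 0.29 (values of 3 to 132 against 221 to 2852, without overlap). The protease inhibitor gene timp4.2 differed by -3.05 ± 0.36. The leukocyte markers above were lowest in iridophore-enriched libraries, as were the 4 markers of dermal fibroblasts and scale cells (medians of 19801.5, 78174 and 98183.5 in iridophore-, melanophore- and xanthophore-enriched libraries). Their part in these differences was not tested.

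Genes higher in iridophore-enriched libraries than in both other kinds were apodb and si:dkey-21a6.5. The apolipoprotein D gene apodb had values of 208 to 2624 (median 782.5) against 10 to 1543 (median 159.5) in melanophore-enriched and 10 to 292 (median 125.5) in xanthophore-enriched libraries, differences of 2.34 ± 0.38 and 2.99 ± 0.42. For si:dkey-21a6.5 the values were 461 to 9976 (median 2852), 361 to 2486 (median 989) and 249 to 3403 (median 860), differences of 1.17 ± 0.29 and 1.67 ± 0.33. In the iridophore-enriched libraries of nigrofasciatus its paternal values were 7481, 9837 and 4844 and its D. rerio values 256, 139 and 115, while in aesculapii the paternal values were 256, 391 and 336 and the D. rerio values 278, 70 and 165. Leaving out replicate 4 ended the calls of si:dkey-21a6.5 against xanthophore-enriched libraries (adjusted p = 0.0638), of NPC2 (1 of many) and lta4h against the same (adjusted p = 0.121 and 0.193) and of irf1b and cap1 against them (adjusted p = 0.171 and 0.188). Without replicate 4 irf1b also lost its call against melanophore-enriched libraries (adjusted p = 0.115). The call of cap1 against these was lost without replicate 3 or 5 (adjusted p = 0.0858 and 0.0832). Against xanthophore-enriched libraries cap1 lost its call without replicate 3 or 5 as well (adjusted p = 0.279 and 0.0591). Without replicate 3 irf1b and lta4h also lost theirs against xanthophore-enriched libraries (adjusted p = 0.0893 and 0.0624). The call of the stress gene ddit4 between iridophore- and xanthophore-enriched libraries (-1.63 ± 0.64, adjusted p = 0.0481) was kept in 3 of 8 alternatives. It was lost with the batch number as a block (adjusted p = 0.0584) and without replicate 4 or 5 (adjusted p = 0.174 and 0.182). An offset of 1 and no minimum also ended it (adjusted p = 0.106 and 0.115).

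**Figure D5:**
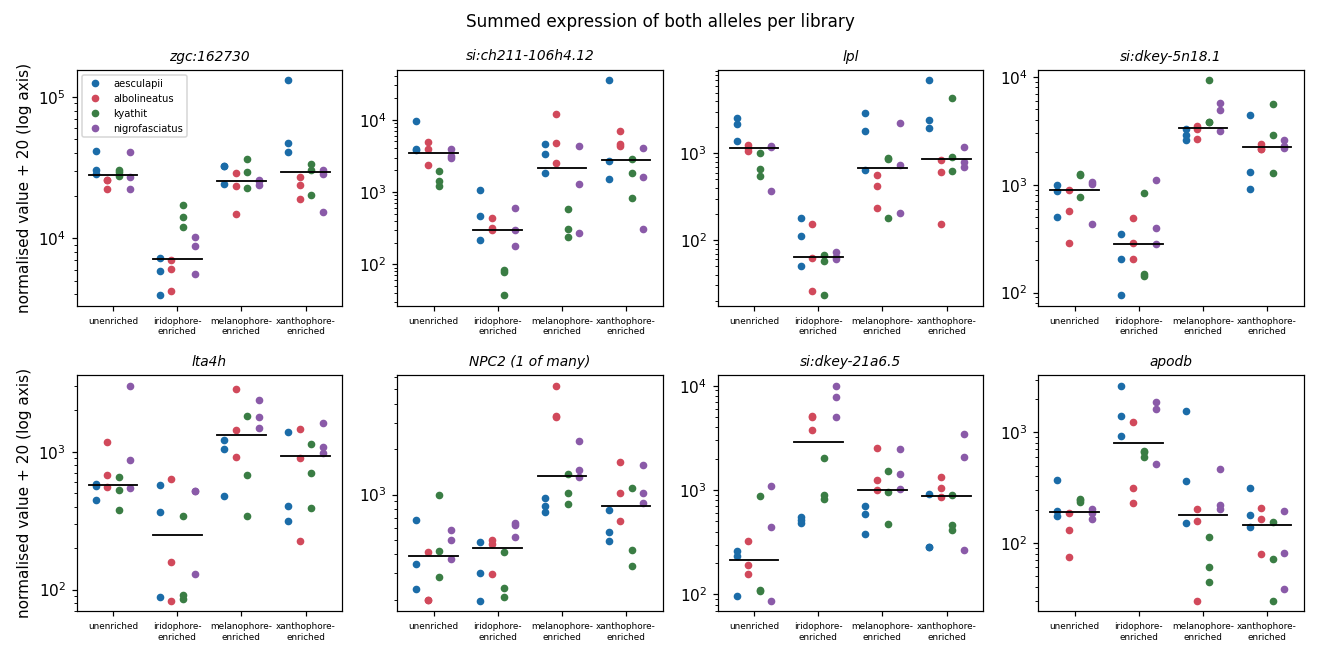
Normalised value of both alleles together plus 20 (vertical axis, log scale) per library for 8 genes by kind of library (horizontal axis) and hybrid (colour). Black lines are medians of 12 libraries plus 20. In the first 6 genes the iridophore-enriched median is below those of the other sorted kinds, and in si:dkey-21a6.5 and apodb it is above them.

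Lists of related genes, with the 85 taken out, gave the following limma calls of the mean over hybrids, beside 15.4, 11.3 and 10.4% paternal-higher and 30.1, 28.6 and 25.6% D. rerio-higher over all genes in iridophore-, melanophore- and xanthophore-enriched libraries. Other keratins gave 2 paternal-higher and 3 D. rerio-higher of 10 tested in iridophore-enriched, 3 and 4 of 10 in melanophore-enriched and 2 and 2 of 9 in xanthophore-enriched libraries. Their medians were -0.11, -0.04 and -0.17, beside -0.13, -0.16 and -0.14 for all genes tested. A list of actin genes and regulators, which holds pfn2 but not cap1, scinla, ssh2b or actn1, gave 2 and 7 of 22, 1 and 6 of 22 and 1 and 5 of 16 in the same order. Translation factors other than eif4a1a gave 2 and 10 of 35, 0 and 10 of 28 and 1 and 5 of 18. Splicing factors, none of the 85 among those tested, gave 5 and 6 of 34, 1 and 6 of 20 and 0 and 3 of 13. Antigen presentation genes, a list of 18 without mhc1uka, gave 0 and 4 of 6, 0 and 6 of 9 and 0 and 5 of 7, and leukocyte genes gave 0 and 4 of 8, 2 and 11 of 19 and 1 and 5 of 12. None of the markers of iridophores, melanophores or xanthophores was among the 85. Only 15, 8 and 13 of these markers were past the minimum in skin, where 85 of all 6071 genes were chosen. They are too few for this count to be told apart from the share of all genes.

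Many zebrafish genes exist as pairs kept from a genome duplication, so the partners of the 85 were compared in skin. Of the 85, 20 had a partner with the paired letter in the tables, and 14 partners were past the minimum in all 4 hybrids. No partner was itself among the 85 or among the 138 mirror genes. These sets hold so few of the 6071 genes past the minimum that 14 partners cannot show a difference from all genes. Of the 56 ratios of these partners over 4 hybrids, 34 were below 0 (60.7%, against 51.7% of all genes). The partners rnf213b, srsf3b, stt3a and ssh2a were below 0 in all 4 hybrids, although stt3a and stt3b, like fnta and fntb, carry letters for different subunits rather than for duplicates. The partner of scinla, scinlb, had -2.06, -1.25, -0.43 and 0.13 in aesculapii, albolineatus, kyathit and nigrofasciatus, where scinla had 1.14, 1.23, 0.84 and 2.65. The ratios of eif4a1b were -0.08, 0.21, -0.26 and 0.30. How reads were shared between such copies is not given. Of the 14 partners past the minimum, fnta alone was above 0 in all 4 hybrids.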

How the data were processed

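The deposited tables give, for each of 48 libraries, a value per gene for the D. rerio and for the paternal allele. The deposited values are scores: whole numbers that the authors had scaled by a size factor per allele column. Recomputed factors over the 96 columns lay between 0.997 and 1.003. The submitters' processing notes name GRCz11, featureCounts and DESeq2 1.44.0 without their roles, while no source used here gives the aligner or how alleles were assigned. Depth had to be estimated: in each library the spread of the paternal share between replicates, over genes with values of 1000 to 10000, was set equal to counting error, which made a molecule worth 15.2 to 474.5 (26344 to 492661 molecules a library). No counting interval is given, since molecules are estimates and PCR copies were not marked.

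The ratio was log2((paternal molecules + 0.5)/(D. rerio molecules + 0.5)), centred on the library median over genes with 5 or more molecules. Ratios from under 3 molecules were dropped, mitochondrially encoded genes were not tested, and a group was testable with 5 molecules in 2 of 3 libraries. F tests needed 10 molecules of each allele and 5% from the rarer. Summed expression was log2(value + 20), so differences of low genes are understated. limma 3.58.1 in R 4.3.3 was run with precision weights (lowess span 0.3), a trend and robust estimation. Two-sided p-values were adjusted by Benjamini-Hochberg over all genes of a comparison, with 0.05 as threshold. The scripts were tested on simulated data. The count test set down at first was not used, because the values are not counts. Figures were drawn with matplotlib 3.10.9.

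The library titles give 3, 4 and 5 as replicate numbers, and the batch block fitted an effect for each number. In fits over several hybrids this effect was shared by all hybrids, so same-numbered libraries were not paired within a hybrid there. Deviations of allele ratios of same-numbered libraries correlated by -0.07 to 0.20 over 510 genes, and those of summed expression by -0.19 to 0.31 over 3666 genes, with every pair above 0.1 for kyathit 3 and nigrofasciatus 3. Members and lists were chosen with earlier results of these data known. Named genes are those with the highest skin ratios or values, most groups called, smallest F test p, largest expression changes, nearest the threshold or in a list, and others named were chosen after their values were seen. Alternatives were other offsets, minima, weights, centring, a batch block, and leaving out each replicate. No 2 libraries held identical values. Some genes are counted in the totals but not reported here by name.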

Additional observations from a re-analysis of the deposited data

Results flagged for a closer look

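By limma's F test, adjusted over all genes of a kind, the allele ratio of 9 of 44 pairs of gene and sorted kind differed among the 4 hybrids. Over all genes 24.5% of 4235 pairs passed, so the share was not above the background. In melanophore-enriched libraries they were irf1b (adjusted p = 0.00169), fthl28 (0.00695), NPC2 (1 of many) (0.0238) and eif4a1a (0.0375). In iridophore-enriched libraries they were cap1 (adjusted p = 0.00546), ndufs5 (0.0273), mhc1uka (0.0307) and pfn2 (0.034), and in xanthophore-enriched libraries si:ch211-106h4.12 (adjusted p = 0.0467). All 9 genes were paternal-higher in the skin of all 4 hybrids, yet fitted ratios below 0 occurred for ndufs5 in iridophore-enriched libraries of aesculapii and for NPC2 (1 of many) in melanophore-enriched libraries of aesculapii and nigrofasciatus. The adjusted p of cap1 ran from 0.0028 to 0.0148 over the 8 alternatives in which it could be tested, and in 3 others it could not. Over 11 alternatives that of irf1b ran from 0.000418 to 0.0672. That of mhc1uka ran from 0.0307 to 0.381.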

How the results depend on the processing

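Counts of calls moved with the settings, and so did the number of genes tested. Shares of all genes under each alternative are not given here, so these counts do not set the 85 genes against all genes. With a minimum of 10 molecules, 5, 10 and 5 genes were paternal-higher in iridophore-, melanophore- and xanthophore-enriched libraries (of 5, 10 and 5 tested), with 151 of 201 pairs of gene and group and 4 pairs of gene and kind differing among hybrids. With no minimum the counts were 39, 34 and 27 (of 48, 44 and 36), and those higher in summed expression were 6 and 4 in iridophore- against melanophore- and xanthophore-enriched and 0 in melanophore- against xanthophore-enriched libraries. Leaving out replicate 3, 4 or 5 in every group gave 5 to 13 genes of 5 to 13 tested in iridophore-, 9 to 11 in melanophore- and 6 to 8 in xanthophore-enriched libraries, 129 to 157 pairs, 0 to 2 differing among kinds and 1 to 5 among hybrids. For summed expression it gave 1 to 2 higher and 8 to 11 lower in iridophore- against xanthophore-enriched and 0 higher in melanophore- against xanthophore-enriched libraries. Differences among kinds numbered 1 without weights (NPC2 (1 of many) in kyathit) and 1 when a molecule's value came from values of 300 to 3000 (chosen after seeing the data). With the unenriched libraries in the fit they numbered 3, which are not counted as calls because those libraries chose the genes. Without weights, summed expression gave 2 higher and 3 lower in melanophore- against xanthophore-enriched libraries. The rule gave 129 genes at a threshold of 0.6, 48 at 1.0 and 30 at a minimum value of 1000, and 53 to 62 without a replicate, of which 43 to 47 were among the 85. The cause of these shifts was not tested. The 45 results of the mean over hybrids had 411 alternative values, of which 405 kept side and direction and none reversed. With the batch number as a block 16, 16 and 11 genes and 237 pairs were paternal-higher, and of 89 gene results recomputed with it 3 lost their call, those given above for mhc1uka, si:ch211-106h4.12 and ddit4. Of the 85 genes, 12 held too few molecules to be tested in any sorted group. Whether this came from library depth or from low expression in the sorted cells was not tested.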
